A study of Homo sapiens with 12 samples.

Results

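The comparison described here is between 2 pools of MDA-MB-468 cells, a basal-like human breast cancer line, in the absence of thyroid hormone. One pool stably carried the vector pCDH-TRB, which adds thyroid hormone receptor beta, and the other the empty vector pCDH-EV. The libraries were chosen by their titles: 3 TRB libraries and 3 EV libraries given vehicle (NaOH) for 24 hours, 6 of the 12 libraries of the series. All cells, those of the empty vector pool included, had first been starved of hormone for 24 hours in medium free of phenol red with charcoal stripped serum. The other 6 libraries, 3 from each pool, had received 10 nM of the hormone T3 for 24 hours in place of vehicle and serve below as separate libraries of the same pools. The labels name 1 stable pool for each vector, so every difference is one between those pools, and nothing in them tells if replicates were grown as separate cultures. P-values therefore reflect the spread among replicate libraries alone, and that spread may be technical. In bulk RNA, fewer cells that express a gene and less RNA per cell cannot be told apart.

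Thyroid hormone receptors are nuclear receptors that sit on DNA with or without hormone, usually paired with a retinoid X receptor. Without T3 the receptor holds corepressors of the NCOR family, which bring histone deacetylases and lower transcription of genes such as HR and KLF9. Binding of T3 exchanges these for coactivators. Genes held low by hormone-free receptor would be lower in the TRB pool without T3 and would lose that difference, or pass it, with T3.

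Counts assigned to genes ranged from 4241863 to 7851876 in the EV vehicle libraries and from 7311623 to 8904361 in the TRB vehicle libraries. On the first principal component of the 6 libraries, with 40.9% of the variance, the EV libraries lay at -24.3, -15.7 and -15.3 and the TRB libraries at 18.5, 18.3 and 18.4. The second, with 20.3%, set EV replicate 1, the shallowest library, at 23 and EV replicate 2 at -20.7. Mitochondrial ribosomal RNA (MT-RNR1) varied within both groups, between 822 and 8050 CPM (counts of a gene relative to the library's gene total, scaled by TMM) in EV and between 1800 and 4770 CPM in TRB, and its part in the results was not tested. The defining markers of the line were present: all 12 epithelial and basal markers were detected, while PGR was at 0 and ESR1 stood near 7 CPM in both groups. Of markers of other cells, 1 of 5 fibroblast genes passed the filter on low counts (COL1A1, about 16.1 CPM in EV and 17.1 in TRB), 1 of 5 leukocyte genes (CD14, 29.8 and 19.6 CPM) and 3 of 5 endothelial genes. The means of COL1A1 and CD14 given here were not scaled by TMM. The scaled sums of the fibroblast, leukocyte and endothelial lists were 15.7 to 16.4, 28 to 32.7 and 3.91 to 5.78 CPM in EV. In TRB they were 16.4 to 17.7, 17.5 to 21.7 and 3.68 to 4.1 CPM. DCN, LUM and LYZ were at 0, no thyroid follicular gene passed, and the part of other cells in the results was not tested.

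THRB, the receptor gene itself (chromosome 3, 24117153 to 24495756, build GRCh38), stood at 43.6, 42.6 and 44.2 CPM in the EV libraries and at 144, 136 and 141 CPM in the TRB libraries. The groups lay far apart, and the difference was 1.69 on the log2 scale (SE 0.06, adjusted p = 8.48e-35, edgeR's quasi-likelihood test). These counts do not tell transcripts of the vector from those of the endogenous gene. With T3 the same gene stood at 311, 344 and 331 CPM in the TRB libraries, so the hormone-free TRB pool held less receptor RNA than the treated one. THRA, the related alpha receptor, was not called, at 15.6, 14.2 and 14.4 CPM in EV and 18.7, 16 and 17.9 CPM in TRB (log2 difference 0.25, adjusted p = 0.147). The partners RXRA and RXRB were not called either, at log2 differences of 0.15 and -0.09 (adjusted p = 0.133 and 0.403). Of the corepressors, NCOR1 passed narrowly at a log2 difference of -0.13 (adjusted p = 0.0392). That call was lost under DESeq2, without the filter on low counts, at equal depth and when any of the 6 vehicle libraries was left out, with adjusted p up to 0.328. The deacetylase HDAC9 fell further, by 0.65 on the log2 scale (adjusted p = 4.74e-07). Of 22 corepressor and deacetylase genes tested, 4 were lower (18.2%) and 1 higher, and of 20 coactivators 2 were lower (10%), where 7.4% of all genes were lower and 7.86% higher.

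Across all genes the differences were many and mostly small. Of 56832 names in the files, 14549 passed the filter on low counts, and 1143 were called higher in TRB (7.86%) and 1077 lower (7.4%), 15.3% in either direction, at an adjusted p below 0.05. The median absolute log2 difference of the called genes was 0.292, and 118 were higher and 81 lower by 2-fold or more. The 3 and 3 libraries did not overlap for 1087 of the higher and 1026 of the lower genes. DESeq2 called 1430 genes in place of 2220, 673 higher and 757 lower.

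**Figure D1:**
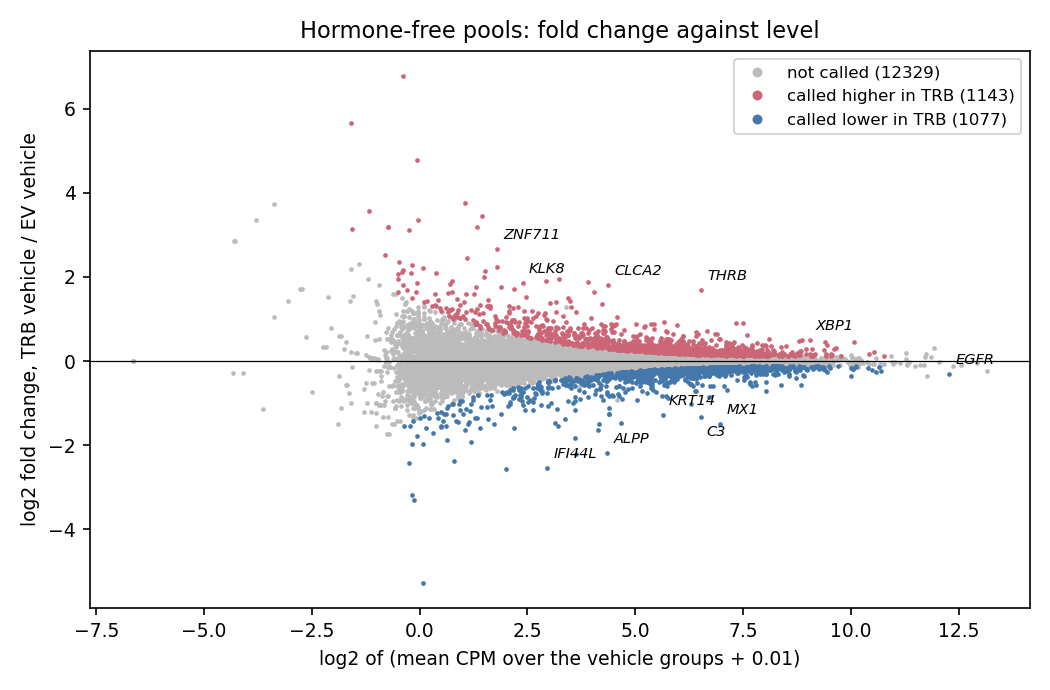
Log2 fold change of TRB vehicle over EV vehicle (vertical) against the log2 mean CPM of both groups (horizontal) for the 14549 genes tested, with 1143 genes called higher, 1077 called lower and 12329 not called. Most called genes lie within 1 log2 unit of 0; MX1, ALPP and IFI44L stand out below and THRB and CLCA2 above.

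Interferon-stimulated genes made up the most one-sided group among the lower genes. Of 47 type I interferon genes tested, 36 were lower in TRB and 0 higher, where 7.4% of all genes were lower, and the median log2 difference of the list was -0.50 beside a median of 0 over all genes. At an unadjusted p below 0.05 of edgeR's test, 39 were lower and 0 higher. The genes act against viruses downstream of the interferon receptor. To show the elements through which such genes are usually read, promoter stretches of 4 that fell strongly are printed from RefSeq (GRCh38.p14), from 180 bases before to 20 after the annotated start. They are written 5′ to 3′ on the gene's strand, with each GAAANNGAAA or its reverse complement, the core of the interferon-stimulated response element, in capitals.
IFI44L (chr1:78620268-78620467, plus strand): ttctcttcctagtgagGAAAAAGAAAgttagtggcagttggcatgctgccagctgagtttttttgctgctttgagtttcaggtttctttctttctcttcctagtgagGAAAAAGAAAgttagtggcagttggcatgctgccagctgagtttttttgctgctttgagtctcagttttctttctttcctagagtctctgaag
IFI6 (chr1:27672173-27672372, minus strand): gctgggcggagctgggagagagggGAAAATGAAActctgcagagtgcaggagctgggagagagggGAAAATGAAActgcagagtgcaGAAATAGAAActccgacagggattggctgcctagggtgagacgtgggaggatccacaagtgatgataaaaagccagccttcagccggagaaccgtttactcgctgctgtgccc
IFIT1 (chr10:89392443-89392642, plus strand): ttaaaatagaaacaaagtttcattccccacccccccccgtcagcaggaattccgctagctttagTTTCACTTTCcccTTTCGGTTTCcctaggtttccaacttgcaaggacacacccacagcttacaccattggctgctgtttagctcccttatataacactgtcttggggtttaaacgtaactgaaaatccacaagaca
BST2 (chr19:17405611-17405810, minus strand): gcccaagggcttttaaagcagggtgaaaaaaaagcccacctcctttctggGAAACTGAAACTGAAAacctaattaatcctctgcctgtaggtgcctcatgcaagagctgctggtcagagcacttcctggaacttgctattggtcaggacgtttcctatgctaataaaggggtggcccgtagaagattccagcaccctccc
IFI6 holds 3 copies, at -156 to -93 from the start, and the others 2 each; the copies of BST2 overlap. In windows of 300 bases around the start, 21 of the 30 type I interferon genes called lower that had a RefSeq window (of 36 genes) held the motif on either strand, 70%, beside 3.65% of all 27305 windows. Of the 38 windows of tested list members, called or not, 24 held it. A match is a description of the letters and not a bound site.

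The pools did not overlap for 40 of the 47 genes. As 1026 of all 1077 lower genes did not overlap either, this count adds little to the calls. Its share over all genes tested is not given here. MX1, a GTPase that blocks incoming viruses (chromosome 21, 41420304 to 41459214), stood at 196, 185 and 176 CPM in EV and at 64.7, 65.1 and 65.4 CPM in TRB. Its log2 difference was -1.50 (SE 0.16, adjusted p = 0.00024, edgeR's quasi-likelihood test). IFI44L was at 13.7, 11 and 15 CPM in EV and 1.58, 1.9 and 3.42 CPM in TRB, the lowest fold change of all genes named by the rule on levels (-2.55, adjusted p = 0.00793). IFI6, an inhibitor of viral replication, stood at 22.6, 16 and 21.8 CPM against 4.73, 3.47 and 4.92 CPM. BST2, which tethers budding virus to the cell, stood at 26.5, 27.4 and 26.2 CPM against 8.28, 7.73 and 9.97 CPM. IFIT1, XAF1 and OAS2 were lower by 1.82, 1.37 and 1.48 on the log2 scale, and none of these genes had overlapping groups. The summed level of the list was 2670 to 2830 CPM in EV and 1960 to 1990 CPM in TRB. In the separate T3 libraries 31 of the 47 were lower in TRB and 2 higher, where 19.7% of all genes were lower, and 27 were lower in both. MX1 was at 171, 251 and 226 CPM in EV with T3 and at 89.7, 99.1 and 90.4 CPM in TRB with T3.

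Genes induced by interferon gamma, among them those that load peptides for antigen presentation, were also lower without T3. Of 28 tested, 17 were lower and 1 higher, where 7.4% of all genes were lower and 7.86% higher. The median log2 difference of the list was -0.29. IRF1, the transcription factor that drives many of them, stood at 54.1, 59.3 and 54 CPM in EV and 34.6, 32 and 34.3 CPM in TRB. Its log2 difference of -0.74 (SE 0.07, adjusted p = 3.79e-13) was set against 0.76 in the T3 libraries, where EV stood at 78.7, 81.3 and 77.6 CPM and TRB at 135, 135 and 131 CPM. TRB was thus the lower pool without hormone and the higher pool with it, with no overlap in either. The peptide transporter genes TAP1 and TAP2 were lower by 0.70 and 0.75 without T3 and were not called between pools with T3 (adjusted p = 0.0597 and 0.915). For the list as a whole, the T3 libraries had 14 members higher in TRB and 1 lower, where 21% of all genes were higher and 19.7% lower. The pool difference was called more positive with T3 for 21 of 28, where 12.3% of all genes were. Of the 14 lower members with a RefSeq window, out of 17, 9 held GAAANNGAAA. Many genes respond to both kinds of interferon, so the lists are not independent of each other.

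NF-kB targets, genes of inflammation and survival, followed: 11 of 19 were lower and 0 higher (13 and 0 at an unadjusted p below 0.05, edgeR). Over all genes 7.4% were called lower and 7.86% higher. The complement protein C3 stood at 139, 130 and 124 CPM in EV and 47.2, 54.2 and 54.1 CPM in TRB, a log2 difference of -1.33 (adjusted p = 8.55e-29). TNFAIP2, induced by tumour necrosis factor, was lower without T3 (-0.58) and higher with it (0.54). BIRC3, an inhibitor of apoptosis, was lower in both (-0.70 and -0.33). LIF, a cytokine of the interleukin 6 family, was at 32.2, 28.8 and 28.3 CPM against 12.8, 11.6 and 12.6 CPM. Without EV replicate 2, 7 NF-kB targets were called lower in place of 11.

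**Figure D2:**
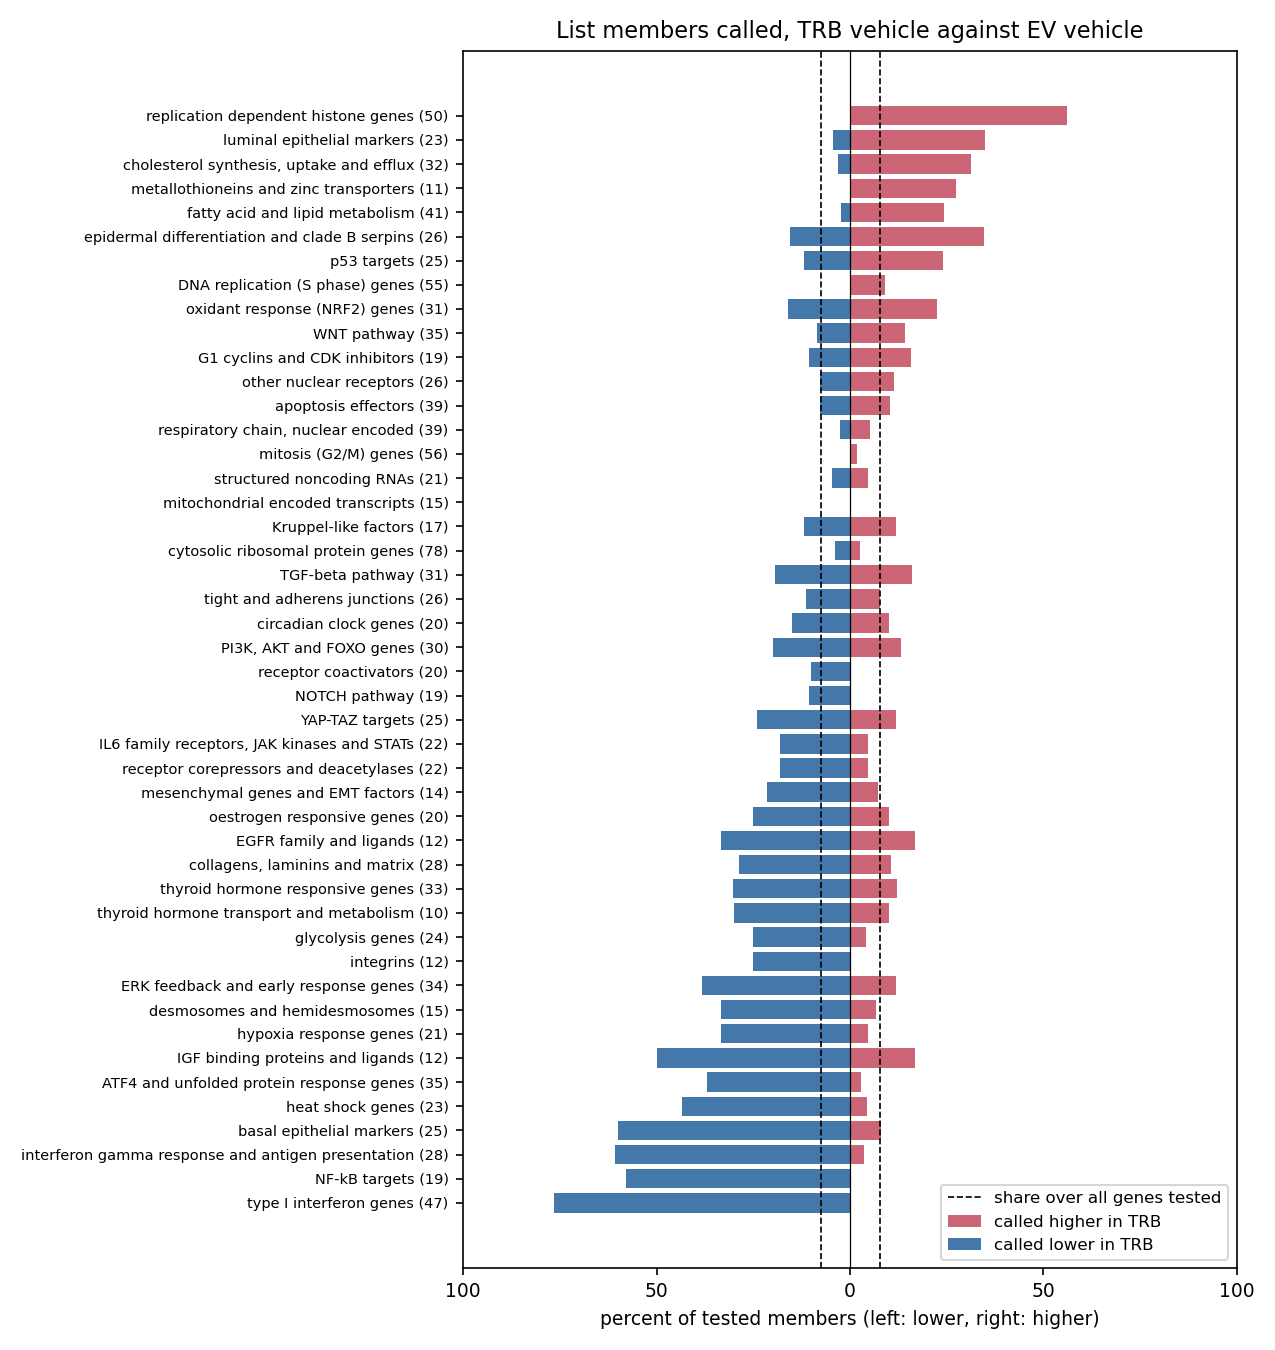
Percent of tested members of each gene list called higher (right) or lower (left) in TRB vehicle than in EV vehicle, with the number tested in brackets; dashed lines mark the shares over all genes, 7.86% higher and 7.4% lower. Type I interferon, NF-kB, interferon gamma and basal lists extend farthest left and histone genes farthest right.

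The basal keratin programme that marks this line was lower in the TRB pool. Of 25 basal epithelial markers, 15 were lower (60%) and 2 higher (8%), where 7.4% of all genes were lower and 7.86% higher. The summed level of the list was 9400 to 9750 CPM in EV and 7770 to 7860 CPM in TRB. KRT14, a keratin of the basal layer, stood at 67.9, 72.9 and 69.9 CPM against 28.9, 28.4 and 29.6 CPM (log2 difference -1.28, SE 0.07, adjusted p = 1.54e-23). KRT16 and KRT6B, keratins of activated epidermis, were lower by 1.01 and 0.82 on the log2 scale. The abundant KRT17 stood at 551, 549 and 554 CPM against 390, 374 and 353 CPM, and KRT5, its partner in basal cells, at 1150, 1160 and 1160 CPM against 963, 856 and 880 CPM. EGFR, the growth factor receptor whose gene is amplified in this line, had the largest fall in CPM of any called gene, from 5660, 5340 and 5540 to 4350, 4440 and 4470, a log2 difference of -0.32 (adjusted p = 1.09e-08). In the T3 libraries 22 of the 25 were lower in TRB, 15 in both conditions, where 19.7% of all genes were lower with T3. The keratins fell further there: KRT14 differed by -2.60 and KRT5 by -2.16 on the log2 scale, and the interaction was called for both (adjusted p = 1.46e-16 and 5.37e-23). The tight junction gene CLDN1 was lower by 0.88, and of 15 desmosome and hemidesmosome genes 5 were lower and 1 higher. Without EV replicate 1, 3 desmosome and hemidesmosome genes were called lower.

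Luminal markers went the other way in part, with 8 of 23 higher and 1 lower, where 7.86% of all genes were higher and 7.4% lower. The other 14 were not called, and the median log2 difference of the list was 0.12. With T3 the list was split, with 9 higher in TRB and 10 lower, beside 21% and 19.7% of all genes. XBP1, a transcription factor of secretory cells, stood at 449, 442 and 427 CPM in EV and 607, 624 and 618 CPM in TRB (log2 difference 0.49, adjusted p = 2.87e-16). FOXA1, the pioneer factor of luminal breast cells, stood at 119, 122 and 117 CPM against 151, 163 and 151 CPM. SPDEF, a factor of secretory epithelium, rose by 0.25 (adjusted p = 5.62e-06). ESR1, the oestrogen receptor gene, was not called. Of 20 oestrogen responsive genes 5 were lower (25%) and 2 higher (10%), the latter near the share over all genes.

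**Figure D3:**
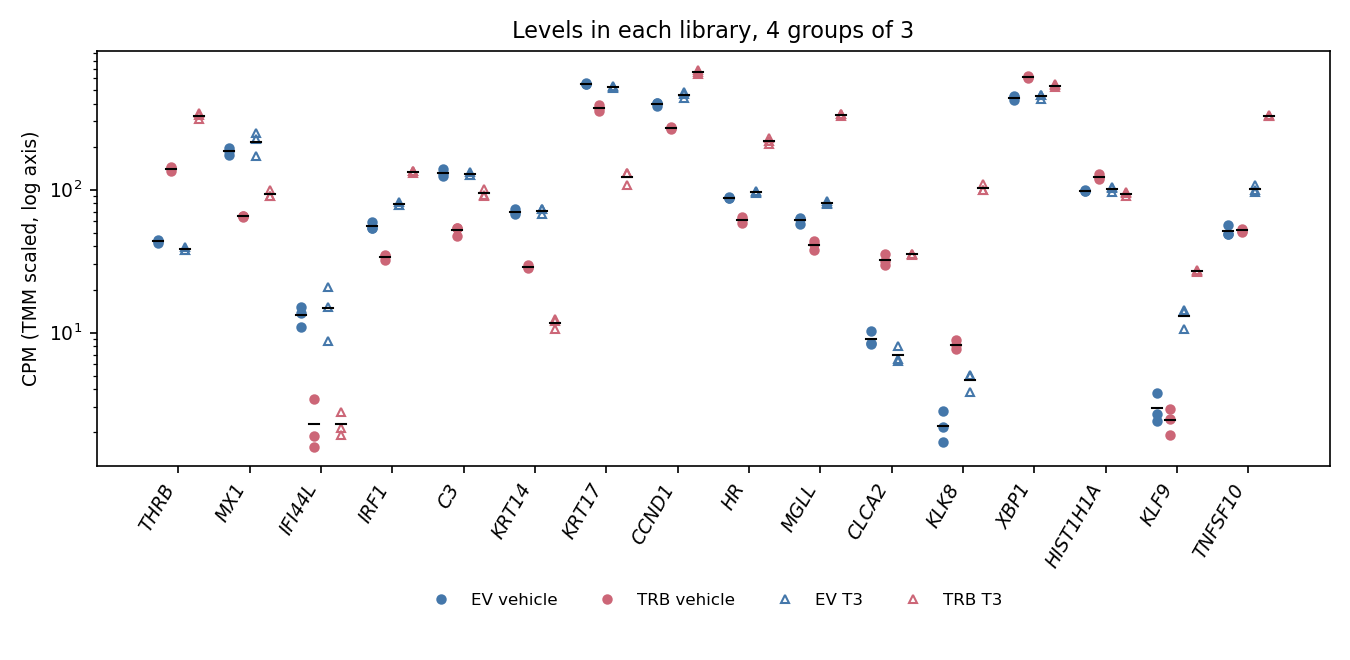
CPM on a log axis for 16 genes in each library (points; circles vehicle, triangles T3; blue EV, red TRB) with group means as bars, 3 libraries per group. KRT14 was lower in TRB with and without T3; IRF1, CCND1, HR and MGLL were lower in TRB without T3 and higher with it; KLF9 and TNFSF10 overlapped between the vehicle groups.

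Growth and stress genes were lower in smaller shares, beside 7.4% of all genes lower and 7.86% higher. Of 34 genes of ERK feedback and the early response, 13 were lower and 4 higher, among the lower the feedback genes IER3 (-0.38) and PHLDA1 (-0.46). CCND1, the cyclin of G1, stood at 405, 388 and 403 CPM in EV and 275, 266 and 271 CPM in TRB (log2 difference -0.56, adjusted p = 7.84e-18). With T3 the order was reversed, at 438, 467 and 479 CPM in EV and 692, 669 and 643 CPM in TRB. Its partner kinase CDK6 was lower in TRB without T3 (-0.60) and with it (-0.90). MYC was lower by 0.39 (adjusted p = 5.34e-07). Of genes of the later cycle, 1 of 56 for mitosis (1.79%) and 5 of 55 for DNA replication (9.09%) were higher, the latter near the 7.86% over all genes. Of 35 genes of the ATF4 and unfolded protein responses, 13 were lower and 1 higher, among them the amino acid transporter pair SLC7A5 (-0.59) and SLC3A2 (-0.45). Heat shock genes had 10 of 23 lower and 1 higher, led in amount by HSP90AB1 (1780, 1810 and 1810 CPM against 1550, 1570 and 1510 CPM). Hypoxia response genes had 7 of 21 lower and 1 higher. Among 12 insulin-like growth factor binding proteins and ligands, 6 were lower and 2 higher, and IGFBP3 stood at 341, 320 and 309 CPM against 192, 203 and 200 CPM.

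Other lower genes of large fold follow. ALPP, the placental alkaline phosphatase, stood at 34.9, 30.5 and 34.8 CPM in EV and 8.68, 6.5 and 6.83 CPM in TRB (log2 difference -2.19, adjusted p = 4.87e-24). Reads of ALPP can be shared with near-identical phosphatase genes, so its count is uncertain. The activin subunit INHBA (-1.54), the stanniocalcin STC2 (-1.50) and the secreted glycoprotein OLFM4 (-1.47) were also lower, and all of these were lower in the T3 libraries too. PADI1, which converts arginine to citrulline in epidermal proteins, differed by -1.59 without T3 and was not called with it (-0.14, adjusted p = 0.422).

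Of the 12 higher genes of largest fold at 5 CPM or more, the zinc finger gene ZNF711 came first, at a log2 difference of 2.65. KLK8, a serine protease of the kallikrein cluster on chromosome 19, stood at 2.17, 1.72 and 2.8 CPM in EV and 8.15, 8.85 and 7.65 CPM in TRB (log2 difference 1.85, SE 0.21, adjusted p = 2.87e-10). KLK7 of the same cluster rose by 2.24, and KLK5 stood at 404, 372 and 388 CPM against 571, 537 and 545 CPM. CLCA2, a chloride channel regulator of epithelia, was at 8.42, 8.29 and 10.3 CPM in EV and 29.6, 31.7 and 35.2 CPM in TRB (1.81, adjusted p = 9.27e-21). FGG, the gamma chain of fibrinogen, stood at 4.33, 8.29 and 6.12 CPM against 22.3, 25.5 and 23.8 CPM. All 5 were higher in TRB in the T3 libraries as well, where KLK8 stood at 100, 110 and 100 CPM against 3.86, 4.96 and 5.06 CPM. The nucleosome binding gene HMGN5, the basement membrane collagen COL4A3 and the junction gene CGNL1 rose by 1.72, 1.75 and 1.91, and each of these and ZNF711 was higher in the T3 libraries too. CYYR1, STAC2 and the secreted MUCL1 rose by 1.95, 1.65 and 1.52. In amount, the surface glycoprotein CD24 (1360, 1390 and 1360 CPM against 1580, 1630 and 1580 CPM) and the actin-binding TMSB10 (583, 573 and 563 CPM against 809, 801 and 728 CPM) were among the largest rises. Of 26 genes of epidermal differentiation and clade B serpins, 9 were higher (34.6%) and 4 lower (15.4%), where 7.86% of all genes were higher and 7.4% lower.

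Replication-dependent histone genes were the most one-sided higher group. Of 50 tested, 28 were higher in TRB without T3 and 0 lower, where 7.86% of all genes were higher, with a median log2 difference of 0.18. At an unadjusted p below 0.05 of edgeR's test, 37 were higher and 1 lower. HIST1H1A, a linker histone gene, stood at 98.9, 98.6 and 97.8 CPM in EV and 128, 119 and 122 CPM in TRB (log2 difference 0.32, adjusted p = 2.22e-06). HIST1H3A and HIST1H3E, both of histone H3, rose by 0.35 and 0.47. The summed level was 6140 to 6590 CPM in EV and 6850 to 7520 CPM in TRB. With T3 it was 6450 to 6710 CPM in EV and 5190 to 5660 CPM in TRB, with 40 of 50 lower and 0 higher. Over all genes 19.7% were lower with T3. The pool difference was called more negative with T3 for 45 of 50, where 11.6% of all genes were. The count without T3 moved with single libraries, to 14 at the lowest, and was over 1.5 times smaller without EV replicate 2, TRB replicate 1 or TRB replicate 2. Histone messages carry no poly(A) tail, and the removal of ribosomal RNA is not described in the labels; its part was not tested.

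Sterol and lipid genes were higher in smaller amounts, beside 7.86% of all genes higher and 7.4% lower. Of 32 genes of cholesterol synthesis, uptake and efflux, 10 were higher and 1 lower, and of 41 fatty acid and lipid genes 10 were higher and 1 lower. SC5D, a late enzyme of cholesterol synthesis, stood at 127, 112 and 124 CPM in EV and 152, 155 and 151 CPM in TRB (0.34, adjusted p = 1.27e-06). INSIG1, which holds sterol synthesis in check, stood at 77.7, 75.9 and 78 CPM against 96.6, 93.4 and 93.5 CPM. INSIG1 was lower in TRB in the T3 libraries (-0.57). The phosphatidate phosphatase LPIN1 and the fatty acid oxidation enzyme ACADM rose by 0.42 and 0.40. Without EV replicate 3, 5 cholesterol and 6 lipid genes were called higher; 6 lipid genes were called at equal depth, and the lipid count was also over 1.5 times smaller without EV replicate 1. MT2A, a metal-binding metallothionein, rose by 0.42, and the aldo-keto reductase AKR1B10 by 0.51. Cytosolic ribosomal protein genes had 2 of 78 higher and 3 lower.

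Genes known to respond to thyroid hormone were then examined. Of 33 tested, 10 were lower in TRB without T3 (30.3%) and 4 higher (12.1%), with a median log2 difference of -0.08. Over all genes 7.4% were lower and 7.86% higher. HR, which encodes a corepressor and is a direct target of the receptor, stood at 88.3, 86.7 and 87.4 CPM in EV and 58.8, 62 and 64.1 CPM in TRB. The groups did not overlap, and the log2 difference was -0.50 (SE 0.06, adjusted p = 2.87e-10). With T3 it stood at 95.9, 97.7 and 94.6 CPM in EV and 210, 231 and 218 CPM in TRB. KLF9, a direct target in many tissues, was low in both vehicle groups, at 2.41, 3.76 and 2.68 CPM and 2.5, 2.91 and 1.91 CPM, and was not called (-0.27, SE 0.27, adjusted p = 0.581), a difference not detectable at this depth. TNFSF10, the death ligand TRAIL, overlapped between the pools without T3 at 57, 49 and 49 CPM against 50.9, 51 and 53.4 CPM (0.02, SE 0.07, adjusted p = 0.892), and was higher in TRB with T3 by 1.703. The glycolytic regulator PFKFB3, the mitochondrial carrier UCP2, the NF-kB cofactor BCL3 and the calcium pump ATP2A2 were lower in TRB without T3 (-0.30, -0.20, -0.22 and -0.15) and higher with it (1.27, 1.00, 0.86 and 0.19). The BCL3 call was lost without EV replicate 1 (adjusted p = 0.0532). PFKP, a phosphofructokinase, and the glucose transporter gene SLC2A4 were lower without T3 (-0.36 and -1.55) and not called with it. IGFBP4 was lower in both (-0.41 and -1.27). The higher members included the calcineurin regulator RCAN2 (0.63) and the lipogenic factor SREBF1 (0.12). The SREBF1 call was lost under DESeq2, without a filter, at equal depth and without any EV replicate or TRB replicate 3, with adjusted p up to 0.26. JAK1 and RUNX2, signalling and transcription factor genes, were not called (adjusted p = 0.0588 and 0.247). JAK1 was called when only the 6 vehicle libraries were fitted (log2 difference 0.11, adjusted p = 0.0268), and its adjusted p reached 0.443 at equal depth.

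Candidates for repression by hormone-free receptor were taken as genes lower in TRB without T3 whose pool difference was called more positive with T3. There were 424, 39.4% of the 1077 lower genes. Both calls use the vehicle libraries, so a low vehicle value in TRB favours both, and the class is a description with no test of its own. The mirror class, higher without T3 and more negative with it, held 421, 36.8% of the 1143 higher genes. With GC offsets, on the genes with a GC value, there were 553 candidates and 350 mirror genes. The mirror class fell to 219 with DESeq2, to 276 at equal depth, to 270 without EV vehicle replicate 3 and to 276 without TRB vehicle replicate 2. Between the pools with T3, 211 of the candidates were higher in TRB, 197 were not called and 16 were still lower; the interaction that chose them uses these libraries too, so nothing is read from that split. At equal depth the candidates numbered 299. The T3 libraries, at 10323437 to 11955825 counts, were all deeper than the vehicle libraries and held MT-RNR1 at 58.3 to 151 CPM. The part of that RNA in the interaction was not tested. The median log2 difference of the candidates was -0.28 without T3 and 0.15 with it. Within the TRB pool T3 raised 408 of the 424, where it raised 22.4% of all genes and changed 44.4% in either direction. That count is fixed in large part by the choice of the class and supports nothing. Within the EV pool, which has the cell's own receptors, T3 raised 100 and lowered 5, where it raised 2.84% of all genes, lowered 1.7% and changed 4.54%.

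The candidates with the largest interaction were MGLL and others whose vehicle groups did not overlap. MGLL, which breaks down monoacylglycerols, stood at 63.3, 57.4 and 62.6 CPM in EV and 41.4, 38.1 and 43.9 CPM in TRB without T3 (-0.57, SE 0.07, adjusted p = 3.66e-10). With T3 it stood at 80, 79.6 and 82.9 CPM in EV and 338, 337 and 329 CPM in TRB. RCSD1, an actin capping regulator, stood at 8.18, 9.23 and 6.75 CPM against 4.86, 5.38 and 5.33 CPM, and its vehicle call was lost without EV replicate 2 (adjusted p = 0.111). CD14, a receptor for bacterial lipopolysaccharide, stood at 32.7, 29.1 and 28 CPM against 21.7, 19.5 and 17.5 CPM and reached 184, 194 and 181 CPM in TRB with T3. SGK1, a kinase regulated by steroid hormones, stood at 15.9, 14.7 and 16.9 CPM against 8.28, 8.06 and 8.47 CPM, and T3 in the EV pool left it uncalled (-0.02, adjusted p = 0.953). HES2, ABCC4, CUEDC1, C10orf10 and STC1 were lower without T3 by 0.79, 0.78, 0.55, 0.49 and 0.51 on the log2 scale, and CD22 by 1.27. SERPINB1, an inhibitor of neutrophil proteases, was the most abundant, at 141, 145 and 139 CPM against 114, 119 and 112 CPM without T3, and at 188, 186 and 202 CPM against 622, 619 and 591 CPM with it.

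**Figure D4:**
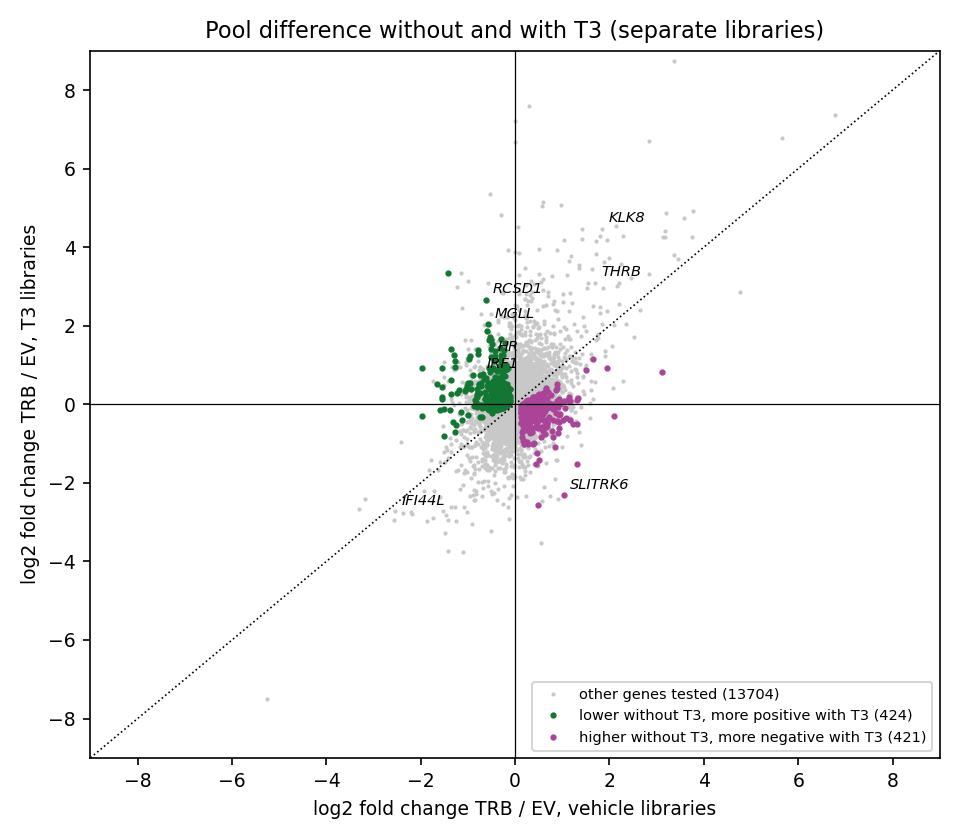
Log2 fold change of TRB over EV in the T3 libraries (vertical) against the same in the vehicle libraries (horizontal) for the 14549 genes tested, with the 424 candidates in green, the 421 genes of the mirror class in purple and the line of equal difference dotted. HR, MGLL and IRF1 lie left of 0 and above it, IFI44L near the dotted line.

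The half-site to which thyroid hormone receptors bind reads AGGTCA. It was searched on both strands, alone and as the direct repeat spaced by 4 bases (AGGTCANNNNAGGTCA), in the 300-base windows. The half-site was in 3806 of 27305 windows, 13.9%, and the spaced repeat in 5. Only 319 of the 424 candidates had a window, too few for a share over the class. SERPINB1 and PADI1, which was not called between pools with T3, are shown because they hold the half-site, and stand for no larger group. The half-site or its reverse complement is in capitals.
PADI1 (chr1:17204948-17205147, plus strand): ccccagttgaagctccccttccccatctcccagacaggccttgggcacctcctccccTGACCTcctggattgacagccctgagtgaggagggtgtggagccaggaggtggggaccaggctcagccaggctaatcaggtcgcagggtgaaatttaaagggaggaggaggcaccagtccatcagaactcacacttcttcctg
SERPINB1 (chr6:2841844-2842043, minus strand): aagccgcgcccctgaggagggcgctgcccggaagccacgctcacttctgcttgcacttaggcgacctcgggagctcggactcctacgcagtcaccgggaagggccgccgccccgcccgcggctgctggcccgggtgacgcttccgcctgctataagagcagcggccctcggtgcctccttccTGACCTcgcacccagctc
The match lies at -123 in PADI1 and at 3 in SERPINB1, and absence elsewhere says only that these letters are not in this window.

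By function, the candidates held 16 of the 28 interferon gamma and antigen presentation genes tested, 12 of 47 type I interferon genes, 9 of 33 thyroid hormone responsive genes and 6 of 19 NF-kB targets, where 2.91% of all genes tested were candidates. Every candidate is a lower gene, so lists with many lower members hold more of them by construction. Of the lower members, 16 of 17, 12 of 36, 9 of 10 and 6 of 11 were candidates, in the same order. Among all lower genes 39.4% were, and the type I list lay below that share. Among the type I genes PARP14 was a candidate, at 257, 226 and 232 CPM against 158, 167 and 165 CPM without T3 (-0.54) and uncalled between pools with it (0.10, adjusted p = 0.0526). IFIT3 was another, lower by 1.12 without T3 and by 0.41 with it. OAS3, lower by 0.54 and 0.69, was not. Basal markers held 0 candidates of 25. The mirror class held 28 of 50 histone genes and 9 of 32 cholesterol genes, where it held 2.89% of all genes tested. Of the higher members of these lists, it held 28 of 28 and 9 of 10, beside 36.8% of all higher genes. Members of the mirror class of largest interaction were SLITRK6, a neuronal surface protein gene (8.9, 12.2 and 9.43 CPM against 21.2, 21.5 and 20.4 CPM without T3), and EDN2, an endothelin (27, 27.1 and 24.6 CPM against 37.2, 35.4 and 36.6 CPM). With T3, EDN2 stood at 17.9, 19.2 and 15 CPM in EV and 3, 2.6 and 3.23 CPM in TRB. GRHL3, KRT4 and CASP14 rose by 0.85, 0.51 and 0.45 without T3 and were lower in TRB with it (-1.09, -1.41 and -1.53). SPTSSB did likewise, at 0.46 and -1.25. The CASP14 call, at 891, 941 and 914 CPM against 1150, 1250 and 1360 CPM, was lost without a filter, at equal depth and without any one vehicle library other than TRB replicate 1 (adjusted p up to 0.112). That of SPTSSB was lost under DESeq2, at equal depth and without EV replicate 3 or TRB replicate 1 (up to 0.107).

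The 6 T3 libraries share no library with the vehicle comparison. Of the 1077 genes lower in TRB without T3, 491 (45.6%) were lower there too, 375 (34.8%) were not called and 211 (19.6%) were higher. Of the 1143 higher genes, 546 (47.8%) were higher, 416 (36.4%) were not called and 181 (15.8%) were lower. Among all genes tested, 21% were higher and 19.7% lower between pools with T3, 40.7% in either direction. The 491 are 17.2% of the genes lower with T3, and the 546 are 17.9% of those higher. Across the 14549 genes, which are not independent replicates, the log2 differences without and with T3 had a Pearson r of 0.388. The interaction was called for 23.9% of all genes, and not for 515 of the lower and 581 of the higher genes.

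Some of the pool difference followed chromosome position. On chromosome 8, 74 of 424 tested genes were lower in TRB (17.5%) and 17 higher (4.01%), and on chromosome 13, 45 of 222 were higher (20.3%) and 10 lower (4.5%). On X, 89 of 406 were higher (21.9%) and 31 lower (7.64%). Over all genes tested 7.86% were higher and 7.4% lower. The median log2 difference was -0.07 on chromosome 8 and 0.12 on chromosome 13 without T3, and -0.09 and 0.10 in the T3 libraries. On X the median was 0.06 without T3 and 0.02 in the T3 libraries. Of 168 windows of 10 Mb with 30 or more tested genes, 11 had a median beyond 0.1 in either direction; 9 of these had the same sign in the T3 libraries and 6 were beyond 0.1 there too. The window from 140 to 150 Mb of chromosome 8 had 31 of 80 genes lower and 0 higher, with a median of -0.21 (T3 libraries -0.23). Its median deviation from the mean of all 12 libraries was 0.053, 0.11 and 0.085 log2 units in the EV vehicle libraries and -0.098, -0.159 and -0.067 in the TRB vehicle libraries, and in the T3 libraries every EV value again lay above every TRB value. PLEC, a cytoskeletal linker and named here for the hemidesmosome list, HSF1, the heat shock factor, CYC1 of the respiratory chain and RPL8 of the ribosome all lie in this window, and were lower by 0.35, 0.30, 0.26 and 0.20 on the log2 scale. MYC lies in the window from 120 to 130 Mb, whose median was -0.15. Between the pools with T3, PLEC, CYC1 and RPL8 were again lower in TRB (-0.66, -0.15 and -0.40). HSF1 and MYC were not called there (-0.07 and -0.08), and both belonged to the candidates. The histone cluster window on chromosome 6, from 20 to 30 Mb, had a median of 0.11 without T3 and -0.18 with it. Copy number was not measured, and its part in these differences was not tested.

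**Figure D5:**
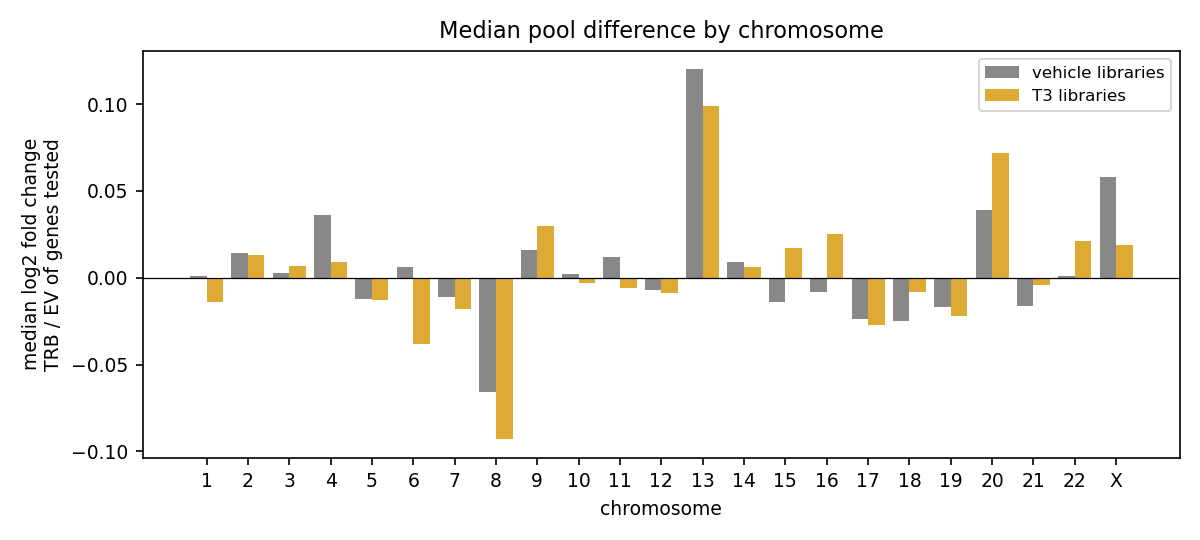
Median log2 fold change of TRB over EV of the genes tested on each chromosome, in the vehicle libraries (grey) and in the T3 libraries (yellow). Chromosome 8 lies lowest and chromosome 13 highest in both, at -0.066 and 0.12 in the vehicle libraries.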

How the data were processed

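RNA of MDA-MB-468 cells was sequenced in 12 libraries, 3 for each of the vectors pCDH-TRB and pCDH-EV with T3 or vehicle. Unnormalized read counts for each gene, as whole numbers, are what the authors deposited and what was used. The submitters' processing notes name HTSeq 0.10, STAR 2.7, CASAVA 1.7 and DESeq2 and build hg38, and the labels' protocols a NEBNext Ultra II RNA kit. Whether strand was used in counting is not stated there, and values of overlapping or antisense genes are therefore uncertain. Lines that name no gene, 31.87% to 39.24% of alignments, were left out.

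Tests used edgeR 4.0.16 (limma 3.58.1, R 4.3.3): filterByExpr (minimum 10 counts, 15 in total), TMM, robust quasi-likelihood fits of 4 group means over all 12 libraries with 8 residual degrees of freedom, and Benjamini-Hochberg adjustment over 14549 genes. TMM factors also scale the CPM. The SE was taken as the log2 difference divided by the square root of F. Of 56832 names, 29502 matched the GENCODE annotation by symbol and 918 through a synonym. In simulated counts on 14369 genes for this comparison, the test found 26% of genes changed by 1.2-fold and 78% at 1.5-fold. At 2-fold it found 88% and at 4-fold 96%, and 7 unchanged genes were called.

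The members and the 54 gene lists were chosen with earlier results of these data known. Genes were named by rule: THRB, THRA, RXRA, RXRB, NCOR1, KLF9, HR, TNFSF10, JAK1 and RUNX2; the 12 highest and 12 lowest fold changes at 5 CPM or more in the higher group without overlap; the 8 largest rises and falls in CPM; the 12 candidates and 6 mirror genes of largest interaction by the same limits; up to 3 called members of smallest p per list; and called thyroid hormone responsive genes. Some genes that the rule takes are not reported here. Alternatives were DESeq2 1.42.0, RLE, no filter, CPM above 1, the compared groups alone, a replicate block, thinned counts, protein-coding genes, GC offsets and each library left out; list and mirror counts under them were added after seeing the data.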

Additional observations from a re-analysis of the deposited data

Results flagged for a closer look

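Of 105 genes examined for the text, the difference between the pools itself differed with T3 from that without it for 81 by edgeR's quasi-likelihood test of the interaction at an adjusted p below 0.05: 46 more positive with T3 and 35 more negative, where 12.3% and 11.6% of all genes tested were. Each value below is the log2 difference of TRB over EV with T3 minus that without. Many of these genes were named for this value or for a vehicle value that enters it, so the counts are a description. Groups of 3 libraries are too small to single out a library by its gap from the others.

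The pool difference was more positive with T3 by the following amounts. The values were largest for RCSD1 (3.28), KLK8 (2.62), MGLL (2.62), CD14 (2.45), CD22 (2.21), CUEDC1 (2.19), SGK1 (2.17) and HES2 (2.17). Next came STC1 (2.15), ABCC4 (2.07), C10orf10 (2.02), SERPINB1 (1.97), FGG (1.75), SLC2A4 (1.74), HR (1.697), TNFSF10 (1.68) and PFKFB3 (1.57). Then followed IRF1 (1.49), PADI1 (1.45), MUCL1 (1.45), THRB (1.41), KLK7 (1.32), KLF9 (1.32), UCP2 (1.196), TNFAIP2 (1.11) and CCND1 (1.09). Lower values were found for BCL3 (1.08), C3 (0.87), RUNX2 (0.76), TAP2 (0.74), LIF (0.74), IFIT3 (0.71), STC2 (0.71), PARP14 (0.63) and TAP1 (0.61). Still lower were KLK5 (0.59), SPDEF (0.55), CLCA2 (0.53), CD24 (0.52), PFKP (0.47), IER3 (0.37), BIRC3 (0.37) and ATP2A2 (0.34). The remaining values were those of MYC (0.31), HSF1 (0.23) and RXRB (0.23). 

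The pool difference was more negative with T3 for the rest. It moved farthest for SLITRK6 (-3.34), EDN2 (-3.03), CASP14 (-1.98), GRHL3 (-1.95), KRT4 (-1.93), KRT5 (-1.79), KRT16 (-1.74), SPTSSB (-1.71) and IGFBP3 (-1.64). Next in size were KRT17 (-1.53), KRT6B (-1.46), OLFM4 (-1.34), KRT14 (-1.32), CLDN1 (-1.31), THRA (-1.23), INHBA (-1.19), CYYR1 (-1.02) and HDAC9 (-0.97). Smaller shifts were found for AKR1B10 (-0.91), IGFBP4 (-0.86), INSIG1 (-0.86), ALPP (-0.61), SC5D (-0.52), STAC2 (-0.49), HIST1H3E (-0.47), LPIN1 (-0.45) and HIST1H1A (-0.43). The remaining shifts were those of HIST1H3A (-0.42), TMSB10 (-0.35), PLEC (-0.30), CDK6 (-0.30), XBP1 (-0.24), SLC7A5 (-0.24), RPL8 (-0.20) and FOXA1 (-0.20).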

How the results depend on the processing

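The count of 2220 genes called between pools without T3 became 1430 with DESeq2 and lay between 1661 (counts thinned to equal depth) and 2437 (compared groups alone) under the other alternatives, and between 1562 and 1846 with 1 library left out. Replicate numbers did not pair the vehicle libraries (correlations of same-numbered deviations 0, 0.02 and 0.02), and with the replicate number as a block 2195 genes were called. The split was 1093 higher and 1200 lower with the 12387 protein-coding genes alone, and 1016 and 1260 with GC offsets on the 12922 genes with a GC value; the part of the gene set and of the offsets was not separated. The pool comparison with T3 gave 5109 to 5717 calls with 1 library left out against 5916 with all. The candidates numbered 286 to 553 under the alternatives and 313 to 428 with 1 library left out. The mirror class became 219 with DESeq2 and 276 at equal depth, and 270 to 427 with 1 library left out. Of 2617 pairs of a called named gene and an alternative, 2489 stayed past the threshold in the same direction, 128 no longer passed and 0 reversed. Type I interferon genes called lower numbered 32 to 38 under all of them. Small changes are limited by depth.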
